A study of Homo sapiens with 14 samples.

Results

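The levels of 9 genes of the response to p53 and to nucleolar stress were followed through this series: MDM2, MDM4, CDKN1A, GADD45A, GADD45B, PLK2, PLK3, RRM2B and ZMAT3. They were chosen by name. All 9 were found among the 60876 annotated genes, and all 9 were among the 15426 genes that had enough reads to be tested. The study sequenced 14 libraries of poly(A) RNA, 2 for each of 7 groups of MDA-MB-231 cells. MDA-MB-231 is an established human line of triple-negative breast cancer that carries mutant p53. The libraries are 2 a group, and no label says whether they came from separate cultures, so p-values measure the spread between these libraries, which may be technical. The control group was not treated according to the labels, and elsewhere the study calls its control DMSO. The other 6 groups received CX-5461 or RBI2, both at 5 µM, for a labelled time of 10, 30 or 120 min. CX-5461 is an established inhibitor of RNA polymerase I (Pol I), and RBI2 is a compound that the study describes as an inhibitor of ribosome biogenesis. The names of the deposited tables carry the numbers 2, 10 and 30 where the labels give 10, 30 and 120 min, so the times are given here as labelled, and their true values cannot be settled from these data.

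As background, p53 is a transcription factor that responds to damage and other stress. Most of the 9 genes are known as its targets or direct regulators, while GADD45B is better known for other signals, given below. When the making of ribosomes is disturbed, free ribosomal proteins RPL5 and RPL11 bind MDM2 and stop it from marking p53 for degradation, which is known as nucleolar or ribosomal stress. Several of these genes also respond to other signals: CDKN1A, GADD45A, GADD45B, PLK2 and PLK3 belong to the stress and immediate early genes, whose RNAs are made and lost within minutes to hours. The mutant p53 of this line has lost most of its binding to such promoters. The question of the comparisons was how each compound moved these RNAs against the control, and whether the compounds differed at the same labelled time.

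A library held 14112299 to 24849354 estimated reads (median 16305236). Levels are given as CPM, read counts relative to the size of the library after scaling by the TMM method, and a fold change is given as its base 2 logarithm (log2), with the standard error (SE). A gene passed when its adjusted p in edgeR's quasi-likelihood test was under 0.05 over the 15426 genes. The control replicates differed more from each other than those of any treated group, with 1412 genes apart by more than 2-fold, against 461 to 629 in the other groups. The mitochondrial share of the reads was 20.4% in control replicate 2 and 8.05% to 11.2% elsewhere. The comparisons with the control share its 2 libraries, so they are not independent, and each was repeated without either library. Genes that mark this line were high, with VIM between 2779 and 3387 CPM and the summed level of 6 such genes between 7849 and 8918 CPM. Of 6 luminal or epithelial genes, ESR1, FOXA1 and CDH1 held at most 6 reads in a library and PGR none, while EPCAM and GATA3 were measured, and the summed level was between 14.3 and 18.5 CPM. The summed level of 6 leukocyte genes was at most 0.695 CPM. CDKN2A, which encodes the MDM2 inhibitor p14ARF, had no read in any library.

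RefSeq promoter windows of 300 bases, 250 before the start of transcription and 50 after it, were read for 7 of the 9 genes on GRCh38.p14, and those of GADD45A and RRM2B were not analysed here. The 4 windows below belong to CDKN1A and GADD45B, which rose under CX-5461 labelled 10 min, to PLK2, which fell there, and to the internal start of MDM2, which is the classical p53-responsive one. They lie at chr6:36678464-36678763 on the plus strand, chr19:2475877-2476176 on the plus strand, chr5:58460037-58460336 on the minus strand and chr12:68808767-68809066 on the plus strand. Capitals mark a motif found on either strand.

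CDKN1A: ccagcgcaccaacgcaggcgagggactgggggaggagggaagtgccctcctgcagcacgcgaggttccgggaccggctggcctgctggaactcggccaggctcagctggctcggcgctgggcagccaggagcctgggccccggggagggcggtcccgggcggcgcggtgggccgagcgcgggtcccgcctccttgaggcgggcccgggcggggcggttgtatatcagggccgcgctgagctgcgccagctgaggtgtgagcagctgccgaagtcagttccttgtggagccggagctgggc

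GADD45B: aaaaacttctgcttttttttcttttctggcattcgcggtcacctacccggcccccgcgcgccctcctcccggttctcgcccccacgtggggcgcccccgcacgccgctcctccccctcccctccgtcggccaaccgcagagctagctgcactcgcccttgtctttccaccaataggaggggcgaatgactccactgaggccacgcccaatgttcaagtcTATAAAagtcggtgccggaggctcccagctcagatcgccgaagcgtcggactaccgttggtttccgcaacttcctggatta

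PLK2: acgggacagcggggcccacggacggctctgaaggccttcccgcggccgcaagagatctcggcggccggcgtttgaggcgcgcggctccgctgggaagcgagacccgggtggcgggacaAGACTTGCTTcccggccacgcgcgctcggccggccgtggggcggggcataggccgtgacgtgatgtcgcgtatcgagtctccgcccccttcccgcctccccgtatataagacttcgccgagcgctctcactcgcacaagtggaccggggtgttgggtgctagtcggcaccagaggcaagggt

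MDM2: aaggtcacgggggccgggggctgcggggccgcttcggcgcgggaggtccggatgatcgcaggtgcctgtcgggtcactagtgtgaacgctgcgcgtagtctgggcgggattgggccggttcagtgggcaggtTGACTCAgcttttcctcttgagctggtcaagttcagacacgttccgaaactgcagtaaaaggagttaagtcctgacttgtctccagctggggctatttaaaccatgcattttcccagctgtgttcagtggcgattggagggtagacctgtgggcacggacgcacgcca

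Each window was searched on both strands for the TATA box (TATAAA), the cyclic AMP response element (TGACGTCA), the AP-1 site (TGANTCA), the CArG box of serum response factor and the p53 decamer. The GADD45B window held a TATA box that starts 31 bases before the start of transcription. The PLK2 window held a p53 decamer 132 bases before the start, and the internal MDM2 window an AP-1 site 118 bases before it. The CDKN1A window and those of MDM4, PLK3 and ZMAT3 held none of these letters, which says nothing of the factors beyond these windows. Over all 35116 windows the shares that held a motif were 11.5% for the TATA box, 1.85% for the cyclic AMP response element, 7.71% for the AP-1 site, 1.29% for the CArG box and 6.63% for the p53 decamer. A match is a description of the letters and not of binding. Only exact matches of each pattern were counted, so a site that departs from its pattern would be missed. The lack of a match, as for p53 in the MDM2 window, does not show that a site is absent.

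MDM2 encodes the ubiquitin ligase that marks p53 for degradation, and its gene lies at chr12:68808177-68845544 on GRCh38. The 2 control libraries stood at 54.9 and 61.7 CPM. Under CX-5461 the values were 50.01 and 48.8 CPM at the label 10 min, 54.2 and 43.8 CPM at 30 min, and 58.8 and 64.2 CPM at 120 min. Under RBI2 they were 60.9 and 67.5 CPM, 60.9 and 62.6 CPM, and 57.6 and 58.6 CPM. The CX-5461 libraries of the labels 10 and 30 min were the lowest and lay below both control libraries, and all other treated groups overlapped the control. MDM2 passed in no comparison with the control: its log2 fold changes were -0.24 (SE 0.11), -0.25 (SE 0.11) and 0.08 (SE 0.11) under CX-5461 and 0.14 (SE 0.11), 0.08 (SE 0.11) and -0.0041 (SE 0.11) under RBI2, in the order of the labels. The 95% intervals of all 6 reached from -0.49 at the lowest bound to 0.38 at the highest.

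Per unit of length, MDM2 was assigned mainly to short transcripts near its 3′ end. The transcripts MDM2-230 (649 bases), MDM2-214 (406 bases) and MDM2-226 (502 bases), which have no defined coding sequence and lie within chr12:68842441-68844195, held on average 40.6%, 28.2% and 14.9% of the gene's TPM, a transcript level that is corrected for length. The full-length coding transcript MDM2-202 (12632 bases) held 8.46% of the TPM but 71.8% of the reads. The level of MDM2 in TPM therefore describes the short transcripts and its level in CPM mostly the full-length one. In MDM2-202 alone the controls stood at 39.4 and 36.1 CPM, and the treated libraries between 30.3 CPM (CX-5461 labelled 30 min, replicate 2) and 51.3 CPM (RBI2 labelled 10 min, replicate 2). MDM2 overlaps the carboxypeptidase M gene on the opposite strand and a processed pseudogene on its own strand (chr12:68841946-68842384), to which 1396 reads were assigned over all libraries, so part of the reads there may be shared.

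**Figure D1:**
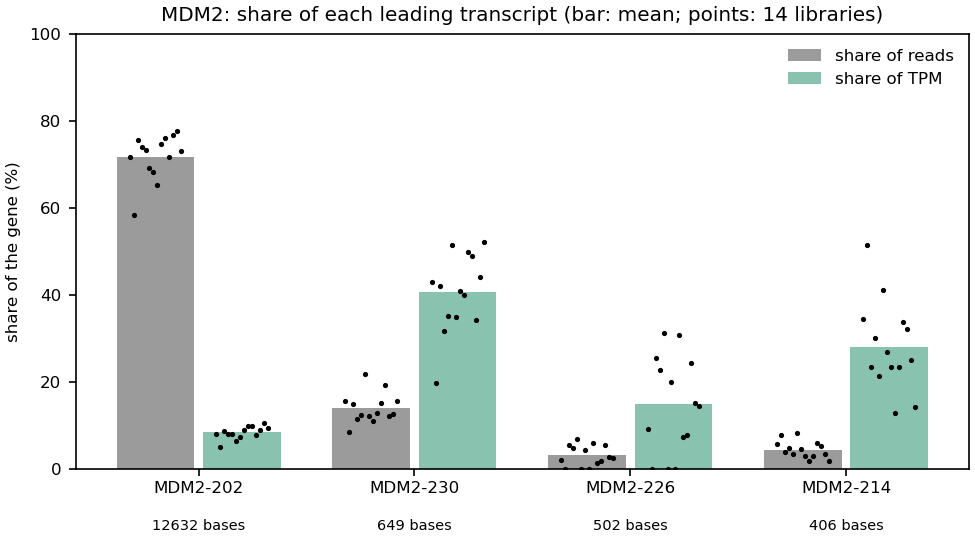
Share of the reads (grey) and of the TPM (green) of MDM2 held by each of its 4 leading transcripts, in percent, with the mean over the 14 libraries as bars and the libraries as points. The full-length MDM2-202 holds 71.8% of the reads and 8.46% of the TPM, and the 3 short transcripts hold most of the TPM.

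MDM4 encodes the relative of MDM2 that binds p53 and blocks its activity, and lies at chr1:204516379-204558120. The controls stood at 42.3 and 38.5 CPM. CX-5461 libraries held 29.7 and 34.4 CPM at the label 10 min, 41.7 and 36.8 CPM at 30 min, and 41.3 and 45.8 CPM at 120 min. RBI2 libraries held 55.7 and 61.0 CPM, 53.8 and 52.4 CPM, and 56.2 and 55.2 CPM. All 6 RBI2 libraries were above the control and CX-5461 libraries, and the CX-5461 libraries of the label 10 min were the lowest. MDM4 rose under RBI2 labelled 120 min by 0.46 (SE 0.10, edgeR, adjusted p = 0.0187), to 1.38-fold. The changes under RBI2 at the labels 10 and 30 min were 0.53 (SE 0.10, adjusted p = 0.101) and 0.39 (SE 0.10, adjusted p = 0.107) in edgeR and did not pass. Under CX-5461 they were -0.33 (SE 0.10), -0.04 (SE 0.10) and 0.11 (SE 0.10), with edgeR's adjusted p between 0.103 and 0.817. The reads of MDM4 were split among 4 long coding transcripts in shares of the TPM that reached from 0 to 62.4% for MDM4-204 from library to library, so single transcripts are not compared.

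CDKN1A encodes p21, the inhibitor of cyclin-dependent kinases through which p53 halts the cell cycle, and lies at chr6:36676460-36687337. Control libraries held 25.0 and 17.6 CPM. With CX-5461 they were 46.6 and 42.9 CPM at the label 10 min, 27.0 and 28.5 CPM at 30 min, and 26.7 and 27.2 CPM at 120 min. With RBI2 they were 31.7 and 28.4 CPM, 24.5 and 25.4 CPM, and 25.7 and 21.8 CPM. The CX-5461 libraries of the label 10 min were far above every other library, and control replicate 2 was the lowest of all. CDKN1A rose under CX-5461 labelled 10 min by 1.06 (SE 0.15, edgeR, adjusted p = 0.00265), to 2.09-fold. At the labels 30 and 120 min its changes were 0.37 (SE 0.15) and 0.33 (SE 0.15), and under RBI2 they were 0.49 (SE 0.15), 0.22 (SE 0.15) and 0.15 (SE 0.15), with edgeR's adjusted p between 0.213 and 0.498. Without control replicate 2 the change under RBI2 was 0.24 at the label 10 min and turned to -0.01 and -0.08 at 30 and 120 min. Under CX-5461 the changes without that library were 0.84, 0.16 and 0.083 in the order of the labels.

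CDKN1A reads fell on 2 coding transcripts that differ in their starts. CDKN1A-201, whose start is that of the window above, stood at 8.75 and 3.57 CPM in the controls and at 23.8 and 16.4 CPM under CX-5461 labelled 10 min. CDKN1A-208, which starts upstream at position 36676460, stood at 16.0 and 13.8 CPM in the controls and at 21.6 and 25.3 CPM there. Both transcripts were thus higher in these libraries than in the controls. CDKN1A-208 was assigned no read in replicate 2 of CX-5461 labelled 120 min and of all 3 RBI2 groups, and in those RBI2 libraries CDKN1A-201 held between 89.7% and 95.5% of the reads. The part of the assignment of shared reads in this division was not tested.

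GADD45A encodes a small stress protein that acts on kinases of the p38 and JNK pathways and on the cell cycle, and lies at chr1:67685201-67688334. The 2 controls had 62.6 and 57.0 CPM. The CX-5461 groups held 25.9 and 26.1 CPM at the label 10 min, 54.4 and 59.6 CPM at 30 min, and 47.4 and 49.1 CPM at 120 min. The RBI2 groups held 71.3 and 65.9 CPM, 69.8 and 68.7 CPM, and 75.8 and 74.4 CPM. All RBI2 libraries were above the controls, and the CX-5461 libraries of the label 10 min lay far below every other library. GADD45A fell under CX-5461 labelled 10 min by 1.20 (SE 0.083, edgeR, adjusted p = 2.51e-05), to 0.434 of the control. It rose under RBI2 labelled 120 min by 0.33 (SE 0.080, edgeR, adjusted p = 0.0247). The other changes were -0.07 (SE 0.081) and -0.31 (SE 0.081) under CX-5461 labelled 30 and 120 min and 0.20 (SE 0.080) and 0.21 (SE 0.080) under RBI2 labelled 10 and 30 min, with edgeR's adjusted p between 0.151 and 0.585. Both leading transcripts were low under CX-5461 labelled 10 min: GADD45A-205 stood at 16.8 and 17.2 CPM against 42.9 and 43.4 CPM in the controls, and GADD45A-202 at 8.41 and 7.25 CPM against 16.0 and 10.1 CPM.

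GADD45B is the relative of GADD45A that is best known as a rapid target of NF-kB and TGF-beta signals, and lies at chr19:2476122-2478259. Its controls stood at 29.4 and 24.3 CPM. After CX-5461 the levels were 49.2 and 50.04 CPM at the label 10 min, 31.8 and 34.7 CPM at 30 min, and 45.4 and 44.2 CPM at 120 min. After RBI2 the levels were 55.6 and 55.3 CPM, 32.1 and 33.2 CPM, and 34.5 and 37.2 CPM. Every treated library was above both controls, and in both compounds the label 10 min was the highest and the label 30 min the lowest of the treated groups. GADD45B rose under CX-5461 labelled 10 min by 0.88 (SE 0.098, edgeR, adjusted p = 0.000567) and under RBI2 labelled 10 min by 1.04 (SE 0.098, edgeR, adjusted p = 0.00179), the latter to 2.06-fold. It also rose by 0.74 (SE 0.098, edgeR, adjusted p = 0.0232) under CX-5461 and by 0.41 (SE 0.099, edgeR, adjusted p = 0.0227) under RBI2 at the label 120 min. At the label 30 min the changes were 0.31 (SE 0.099) and 0.28 (SE 0.099), with edgeR's adjusted p of 0.213 and 0.140. Its main transcript GADD45B-201 held 95.5% of the reads.

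**Figure D2:**
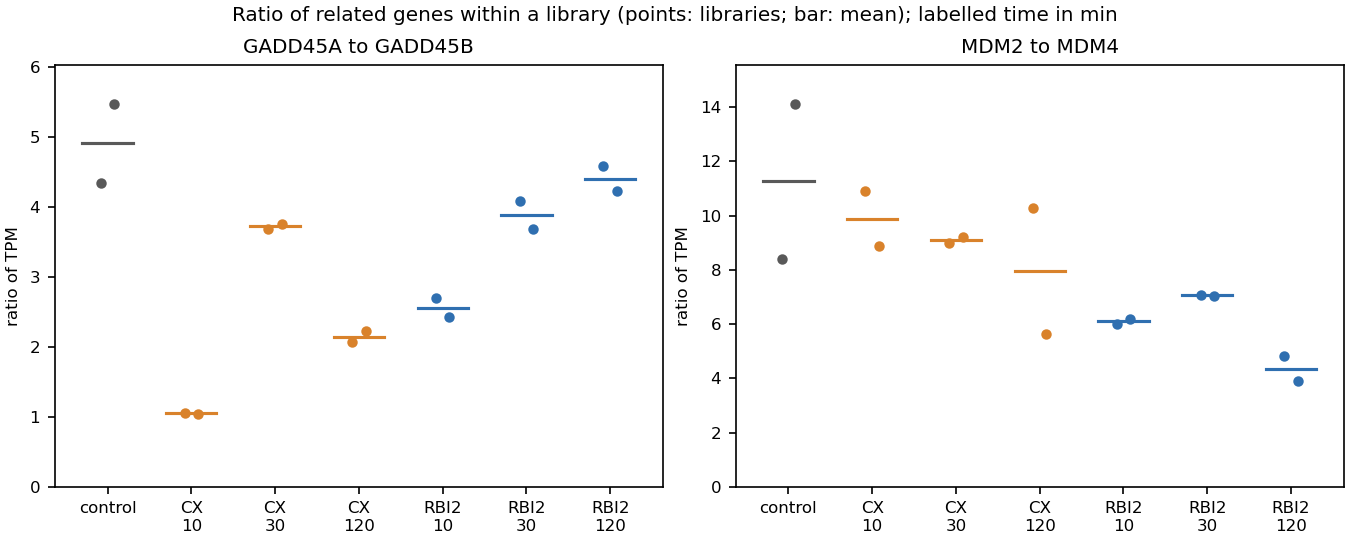
Ratio of the TPM of GADD45A to that of GADD45B (left) and of MDM2 to MDM4 (right) within each library, with points for the 2 libraries of each of the 7 groups and bars for their mean. GADD45A stands 4.35 and 5.48 times above GADD45B in the controls and 1.06 and 1.04 times under CX-5461 labelled 10 min.

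Set against each other per length, the 2 GADD45 genes came close to level only under CX-5461 labelled 10 min. The ratio of the TPM of GADD45A to that of GADD45B was 4.35 and 5.48 in the controls. It was 1.06 and 1.04 under CX-5461 labelled 10 min, 3.69 and 3.75 at the label 30 min and 2.07 and 2.22 at the label 120 min. Under RBI2 it was 2.69 and 2.43, 4.09 and 3.68, and 4.58 and 4.23 in the order of the labels. All treated groups but RBI2 labelled 120 min lay below both controls. No test was made of these ratios. The ratio of MDM2 to MDM4 was 8.40 and 14.1 in the controls and between 3.90 and 7.08 in the RBI2 libraries, and it carries the short MDM2 transcripts described above. Under CX-5461 it lay between 8.86 and 10.9 in 5 of the 6 libraries and at 5.62 in replicate 2 of the label 120 min, within the range of the RBI2 libraries.

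PLK2 encodes a polo-like kinase of early G1 and of the stress response, and lies at chr5:58453982-58460139. The level in the controls was 174 and 204 CPM. In CX-5461-treated cells the values were 87.4 and 90.1 CPM at the label 10 min, 171 and 157 CPM at 30 min, and 173 and 182 CPM at 120 min. In RBI2-treated cells they were 156 and 147 CPM, 162 and 156 CPM, and 144 and 145 CPM. The CX-5461 libraries of the label 10 min were the lowest by far, and all RBI2 libraries were below both controls. PLK2 fell under CX-5461 labelled 10 min by 1.09 (SE 0.087, edgeR, adjusted p = 6.37e-05), to 0.469 of the control. It fell under RBI2 labelled 120 min by 0.38 (SE 0.086, edgeR, adjusted p = 0.0186). The other changes were -0.21 (SE 0.085) and -0.09 (SE 0.085) under CX-5461 labelled 30 and 120 min and -0.32 (SE 0.085) and -0.25 (SE 0.085) under RBI2 labelled 10 and 30 min, with edgeR's adjusted p between 0.133 and 0.663. A short transcript with a retained intron, PLK2-204, held 45.0% of the TPM of the gene in control replicate 2, its highest share in any library, and a mean of 12.8% over the 14 libraries. With protein-coding transcripts only, the change under RBI2 labelled 120 min was -0.20 and did not pass (edgeR, adjusted p = 0.119).

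PLK3 encodes another polo-like kinase of the stress response, and lies at chr1:44800377-44805990. It was the gene with the fewest reads of the 9, with 77 to 240 in a library. Without treatment its level was 9.76 and 6.15 CPM. CX-5461 gave 9.11 and 8.78 CPM at the label 10 min, 8.59 and 8.97 CPM at 30 min, and 9.78 and 9.27 CPM at 120 min. RBI2 gave 4.74 and 5.75 CPM, 8.61 and 8.58 CPM, and 10.4 and 9.06 CPM. The RBI2 libraries of the label 10 min were the lowest of all, and control replicate 2 was close to them. PLK3 passed in no comparison with the control: its changes were 0.16 (SE 0.18), 0.13 (SE 0.19) and 0.25 (SE 0.18) under CX-5461 and -0.61 (SE 0.19), 0.10 (SE 0.19) and 0.28 (SE 0.19) under RBI2. These values turn on the control library. Without control replicate 1 PLK3 passed in 5 of the 6 comparisons, with rises between 0.48 and 0.65, and without replicate 2 its 1 passing change was the fall of 0.91 under RBI2 labelled 10 min.

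RRM2B encodes the small subunit of ribonucleotide reductase that p53 induces for DNA repair and for mitochondrial DNA, and lies on chromosome 8 at positions 102204502 to 102238961. In the controls RRM2B was at 24.2 and 25.6 CPM. CX-5461-treated libraries stood at 27.3 and 27.7 CPM at the label 10 min, 27.9 and 20.7 CPM at 30 min, and 30.7 and 33.9 CPM at 120 min. RBI2-treated libraries stood at 28.0 and 29.2 CPM, 22.2 and 23.6 CPM, and 18.5 and 18.1 CPM. Under RBI2 the 3 groups did not overlap, with the label 10 min highest, and the libraries labelled 120 min were the lowest of all under RBI2 and the highest of all under CX-5461. RRM2B fell under RBI2 labelled 120 min by 0.44 (SE 0.13, edgeR, adjusted p = 0.0404), to 0.736 of the control. Its other changes were 0.15 (SE 0.13), -0.03 (SE 0.13) and 0.38 (SE 0.12) under CX-5461 and 0.20 (SE 0.13) and -0.12 (SE 0.13) under RBI2, with edgeR's adjusted p between 0.316 and 0.886.

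ZMAT3 encodes an RNA-binding zinc finger protein that is a p53 target and a regulator of splicing, and lies at chr3:178960121-179072215. The control values were 17.9 and 21.3 CPM. Its values with CX-5461 were 21.1 and 18.7 CPM at the label 10 min, 18.8 and 14.1 CPM at 30 min, and 19.8 and 22.7 CPM at 120 min. Its values with RBI2 were 21.4 and 19.1 CPM, 17.9 and 19.2 CPM, and 23.2 and 21.5 CPM. All groups but RBI2 labelled 120 min overlapped the control, and neighbours in the order of the groups overlapped throughout. Its changes were 0.03 (SE 0.15), -0.25 (SE 0.15) and 0.12 (SE 0.15) under CX-5461 and 0.05 (SE 0.15), -0.08 (SE 0.15) and 0.19 (SE 0.15) under RBI2, and none passed. Their 95% intervals lay between -0.59 and 0.52.

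**Figure D3:**
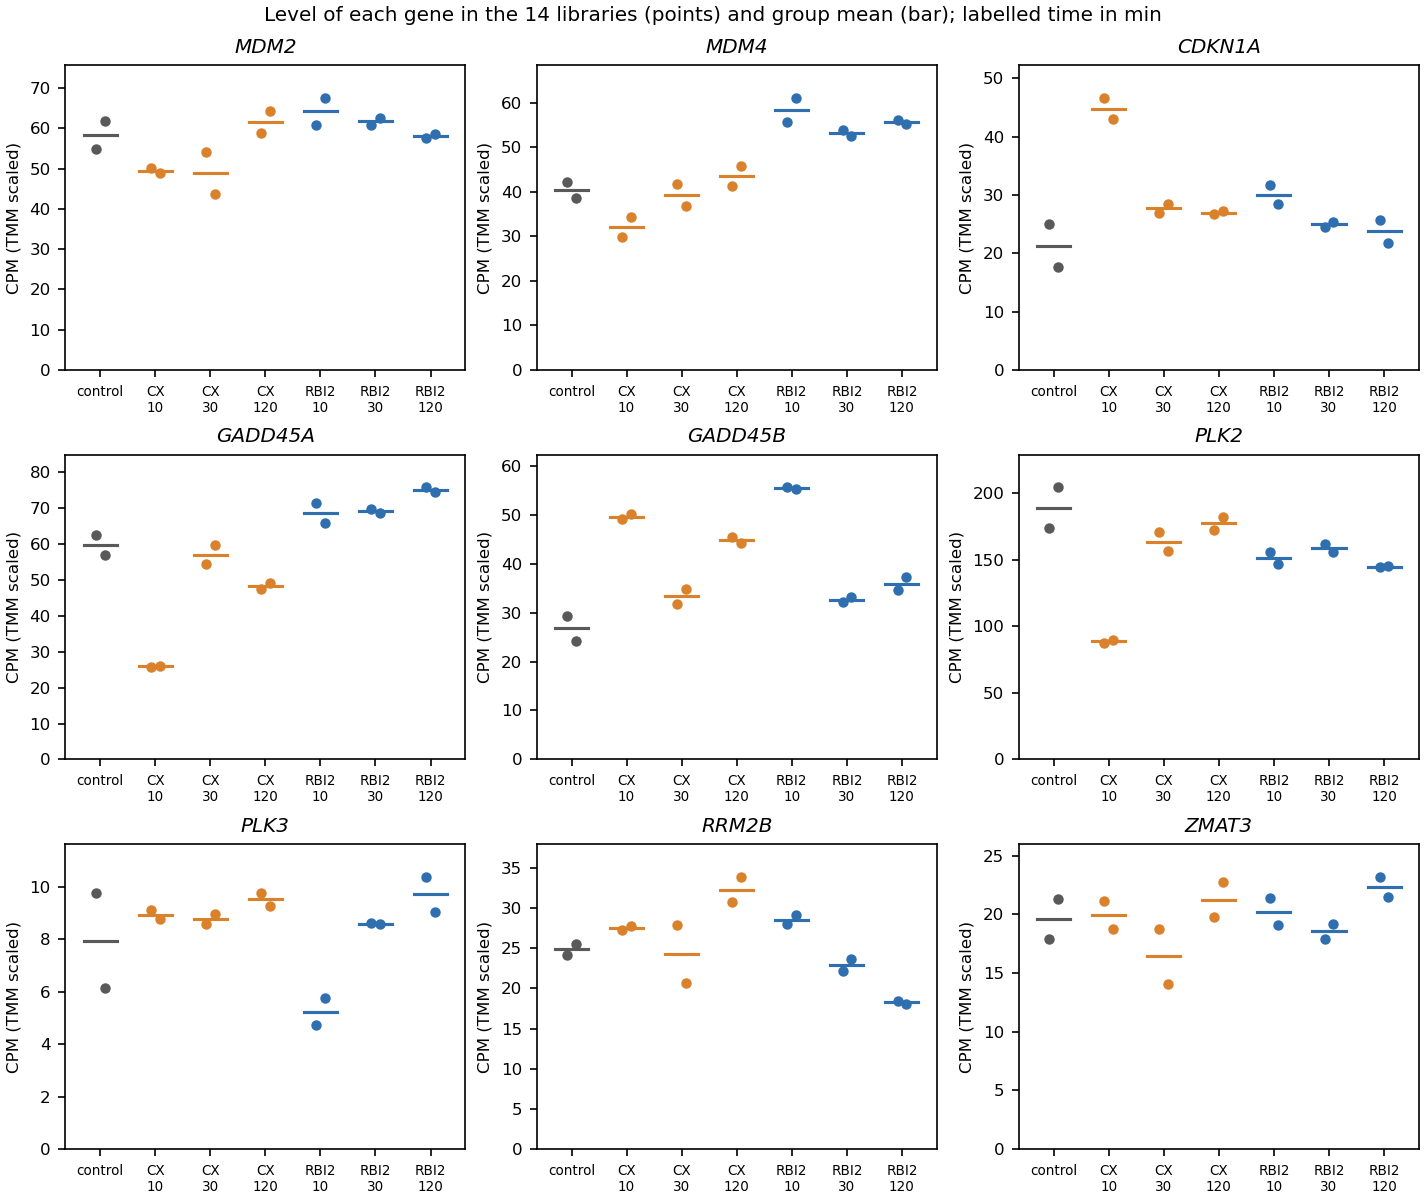
Level of each of the 9 genes in CPM (vertical axis, from 0) in the 14 libraries, as points, with the group mean as a bar, for the control (grey), CX-5461 (orange, CX) and RBI2 (blue) at the labelled times in min. Under CX-5461 labelled 10 min CDKN1A stands at 46.6 and 42.9 CPM, GADD45A at 25.9 and 26.1 CPM and PLK2 at 87.4 and 90.1 CPM, apart from all other libraries.

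Per length and as a mean over all 14 libraries, PLK2 (mean of 102 TPM, SD 29.3) and GADD45A (95.9 TPM, SD 28.6) were the most abundant of the 9, followed by MDM2 (61.0 TPM, SD 5.61), GADD45B (32.5 TPM, SD 9.12), CDKN1A (14.5 TPM, SD 4.45), RRM2B (11.8 TPM, SD 2.55), MDM4 (8.54 TPM, SD 2.94), PLK3 (5.75 TPM, SD 1.25) and ZMAT3 (4.28 TPM, SD 0.757). The order differed between groups: GADD45A was above PLK2 in the 3 RBI2 groups, with 125 against 91.8 TPM at the label 120 min. Under CX-5461 labelled 10 min MDM2, at 54.7 TPM, was above both. The place of MDM2 in this order rests mostly on its short transcripts without a defined coding sequence. In mean CPM, not corrected for length, PLK2 stood at 88.7, MDM2 at 49.4 and GADD45A at 26.0 under CX-5461 labelled 10 min. Neighbours in this order of means other than MDM2 and GADD45B had ranges that overlapped across the libraries. Between the lowest and the highest library, GADD45A moved the most in CPM, 2.93-fold, followed by CDKN1A with 2.65-fold, and MDM2 the least, 1.54-fold.

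The number of the 9 genes that passed differed widely between the groups. Under CX-5461 labelled 10 min 4 of the 9 passed, CDKN1A and GADD45B upward and GADD45A and PLK2 downward, while 4.77% of all genes tested passed, 1.80% upward and 2.98% downward. The median change of the 9 was 0.03 and that of all genes -0.04. These 4 calls held with any of the 14 libraries left out, and with DESeq2. With only the 4 libraries of the comparison in the model none passed, with edgeR's adjusted p between 0.145 and 0.306. The changes there were close to those above, at 1.08 for CDKN1A, 0.89 for GADD45B, -1.19 for GADD45A and -1.08 for PLK2. The share of all genes is not given for this fit or the other fits of only 4 libraries. Calls lost in them are therefore not read as particular to these genes. In bulk RNA a lower level in every cell and the loss of the RNA from a share of the cells cannot be told apart.

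Under CX-5461 labelled 30 min 0 of the 9 passed in edgeR, as did 0% of all genes. DESeq2 called 0 of the 9 as well, and 4 of the 9 and 3536 of all genes (22.9%) had an unadjusted p under 0.05. Without control replicate 1 the count was 5, with MDM2, CDKN1A, GADD45B, PLK2 and PLK3, where 39.3% of all genes passed. At the label 120 min 1 of the 9 passed, GADD45B, with 0.0778% of all genes. This call is narrow: in edgeR its adjusted p rose above 0.05 when any of 11 libraries was left out, all but the controls and CX-5461 labelled 30 min replicate 2, and reached 0.410 without CX-5461 labelled 120 min replicate 2. The size of the change without single libraries lay between 0.58 and 0.88, and the call was also lost with the offset for transcript length (edgeR, adjusted p = 0.129), with protein-coding transcripts only (edgeR, adjusted p = 0.228) and with only the 4 libraries compared (0.71, edgeR, adjusted p = 0.992). Without control replicate 1 the count was 3, with CDKN1A and PLK3 added, where 21.5% of all genes passed.

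Under RBI2 labelled 10 min 1 of the 9 passed, again GADD45B, with 0.201% of all genes, while 6 of the 9 and 12.9% of all genes had an unadjusted p under 0.05. It passed with any of the 14 libraries left out, with edgeR's adjusted p at most 0.0427. With only the 4 libraries compared it did not (edgeR, adjusted p = 0.880). DESeq2 called 3 of the 9 there and 1.14% of all genes, and without control replicate 1 edgeR called 5 of the 9 and 29.1% of all genes. Under RBI2 labelled 30 min 0 of the 9 passed, with 0.0713% of all genes. DESeq2 called 2 of the 9 and 6.37% of all genes, and 4 of the 9 and 25.8% of all genes had an unadjusted p under 0.05 in edgeR. Without control replicate 1 edgeR called 6 of the 9 and 38.3% of all genes.

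Under RBI2 labelled 120 min 5 of the 9 passed, MDM4, GADD45A and GADD45B upward and PLK2 and RRM2B downward. This comparison moved many genes, with 18.0% of all genes passing, 8.90% upward and 9.07% downward, and the levels of the 5 were between 0.736 and 1.38 of the control. The calls were lost without either library of RBI2 labelled 120 min and, for all but PLK2, without control replicate 2. The share of all genes that passed fell in the same fits, so this is not read as particular to the 5. Over the 14 fits without a library the changes were 0.39 to 0.52 for MDM4, 0.26 to 0.39 for GADD45A and 0.28 to 0.55 for GADD45B. They were -0.51 to -0.27 for PLK2 and -0.49 to -0.41 for RRM2B. Without control replicate 1 the count was 7, with CDKN1A and PLK3 added, and 43.1% of all genes passed. RRM2B also failed without any 1 of 7 libraries of other groups, with edgeR's adjusted p between 0.0504 and 0.0614, and with protein-coding transcripts only (edgeR, adjusted p = 0.0569). None of the 5 passed with only the 4 libraries compared in the model, where the changes were close to those above, from -0.44 for RRM2B to 0.47 for MDM4. None passed with an offset for transcript length either, where MDM4 was at 1.03, PLK2 at -0.63 and GADD45A at 0.21, with edgeR's adjusted p of the 5 between 0.0596 and 0.249. Without the filter on low counts GADD45A did not pass (edgeR, adjusted p = 0.0611).

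**Figure D4:**
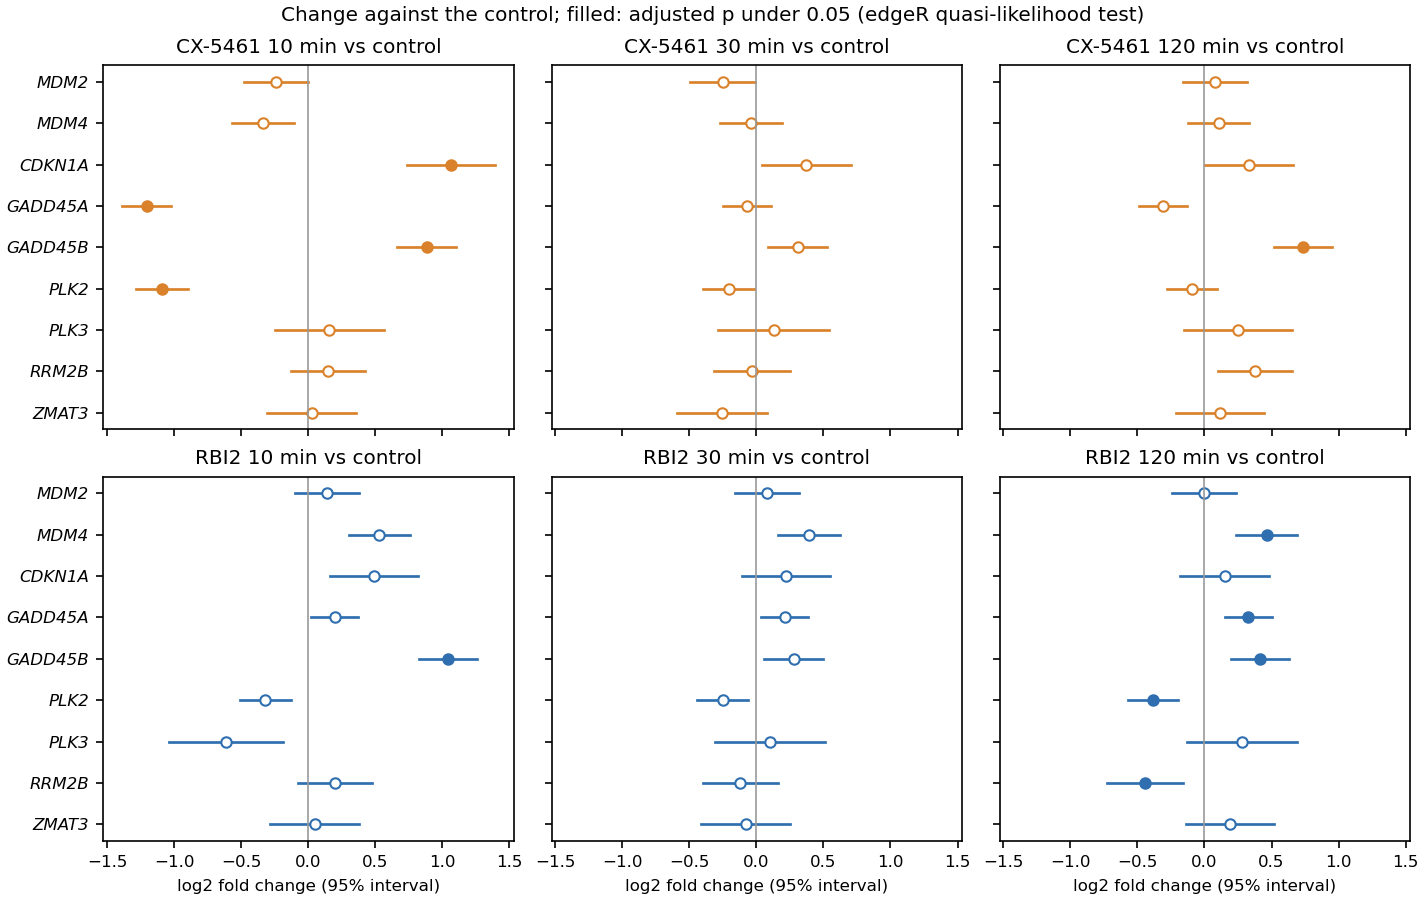
Log2 fold change of the 9 genes against the control (horizontal axis) with its 95% interval, in 6 panels for CX-5461 (top, orange) and RBI2 (bottom, blue) at the labels 10, 30 and 120 min. Filled points have an adjusted p under 0.05 in edgeR: 4 genes under CX-5461 labelled 10 min, 5 under RBI2 labelled 120 min, GADD45B alone under CX-5461 labelled 120 min and RBI2 labelled 10 min, and 0 in the other panels.

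RBI2 and CX-5461 were then compared directly at the same dose and label. The difference itself does not use the levels of the controls, but the control libraries enter the spread shared by all groups. At the label 10 min 3 of the 9 passed, with 3.06% of all genes, 2.23% upward: MDM4, GADD45A and PLK2 were higher under RBI2. GADD45A stood at 71.3 and 65.9 CPM under RBI2 and at 25.9 and 26.1 CPM under CX-5461, a difference of 1.40 (SE 0.083, edgeR, adjusted p = 1.20e-05) or 2.64-fold. The difference was 0.87 (SE 0.10, edgeR, adjusted p = 0.00111) for MDM4 and 0.77 (SE 0.086, edgeR, adjusted p = 0.000715) for PLK2. GADD45B, which rose under both, differed by 0.16 with a 95% interval from -0.05 to 0.37 and did not pass. For CDKN1A the difference was -0.58 (interval -0.90 to -0.26, edgeR, adjusted p = 0.0630), for PLK3 -0.77 (interval -1.19 to -0.35, edgeR, adjusted p = 0.0581) and for MDM2 0.38 (interval 0.14 to 0.62, edgeR, adjusted p = 0.105). DESeq2 called 6 of the 9 and 3.57% of all genes, and edgeR 6 of the 9 without either control library, with 6.21% and 6.09% of all genes. With the offset for transcript length MDM4 and PLK2 did not pass (edgeR, adjusted p = 0.153 and 0.0577), at differences of 0.82 and 0.98. The differences of RRM2B and ZMAT3 were 0.05 (interval -0.22 to 0.33) and 0.02 (interval -0.31 to 0.35).

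At the label 30 min 0 of the 9 passed between the compounds in edgeR and 0 in DESeq2, with 0.0130% of all genes in edgeR and 0.305% in DESeq2. There 3 of the 9 and 7.79% of all genes had an unadjusted p under 0.05, the 3 being MDM2, MDM4 and GADD45A, whose differences were 0.33, 0.43 and 0.28, and the intervals of the 9 lay between -0.48 and 0.66. At the label 120 min 5 of the 9 passed, with 16.1% of all genes. MDM4 (0.36, SE 0.10) and GADD45A (0.64, SE 0.080) were higher under RBI2, and GADD45B (-0.32, SE 0.096), PLK2 (-0.29, SE 0.085) and RRM2B (-0.82, SE 0.13) were lower, with edgeR's adjusted p of 0.0400, 0.00670, 0.0461, 0.0421 and 0.00692. For RRM2B the libraries stood at 18.5 and 18.1 CPM under RBI2 and at 30.7 and 33.9 CPM under CX-5461, so that RBI2 held 0.567 of the CX-5461 level. The calls were lost without either RBI2 library of this label. Without CX-5461 labelled 120 min replicate 2 all but that of GADD45A were lost, and without its replicate 1 those of MDM4, GADD45B and PLK2. The share of all genes is not given for these fits, so lost calls are not read as particular to these genes. Over the 14 fits without a library the differences were 0.27 to 0.46 for MDM4 and 0.61 to 0.70 for GADD45A. They were -0.38 to -0.22 for GADD45B, -0.34 to -0.22 for PLK2 and -0.90 to -0.72 for RRM2B. GADD45B and PLK2 failed as well without any 1 of 11 libraries, all but the controls and CX-5461 labelled 30 min replicate 2, and MDM4 also without replicate 2 of RBI2 labelled 10 or 30 min. DESeq2 called 4 of the 9 and 17.3% of all genes, without GADD45B (adjusted p = 0.0649). In edgeR GADD45B was lost with the size factors of DESeq2 (-0.29, adjusted p = 0.0804) and with the offset for transcript length (adjusted p = 0.0953). It was also lost in edgeR with protein-coding transcripts only (-0.25, adjusted p = 0.167), and, as PLK2 was, without the filter on low counts (adjusted p = 0.182 and 0.130). With protein-coding transcripts only the difference of PLK2 was -0.043 (edgeR, adjusted p = 0.772), and with the offset for transcript length it was -0.66 (edgeR, adjusted p = 0.0847) and that of MDM4 0.57 (edgeR, adjusted p = 0.157). The differences of the other 4 genes lay between -0.18 and 0.07, with intervals from -0.51 to 0.43.

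Within a compound, the CX-5461 libraries labelled 10 min were compared with the later ones. Against the label 30 min 4 of the 9 passed, with 2.43% of all genes: CDKN1A (0.69, SE 0.15) and GADD45B (0.58, SE 0.097) were higher at the label 10 min and GADD45A (-1.13, SE 0.083) and PLK2 (-0.88, SE 0.086) lower, with edgeR's adjusted p of 0.0339, 0.0104, 4.00e-05 and 0.000345. Against the label 120 min 4 of the 9 passed as well, with 3.12% of all genes: CDKN1A (0.73, SE 0.14) was higher and MDM4 (-0.44, SE 0.10), GADD45A (-0.89, SE 0.082) and PLK2 (-0.9997, SE 0.086) lower, with edgeR's adjusted p of 0.0221, 0.0475, 0.000318 and 0.000199. GADD45A and PLK2 passed in both with any of the 14 libraries left out. GADD45B, between the labels 10 and 30 min, and CDKN1A, between the labels 10 and 120 min, did not pass once any 1 of the 4 libraries compared was left out. CDKN1A between the labels 10 and 30 min and MDM4 did not pass once any 1 of the 12 treated libraries was left out. CDKN1A between the labels 10 and 30 min was also lost with the offset for transcript length (0.73, edgeR, adjusted p = 0.124). It was lost there with protein-coding transcripts only (0.68, edgeR, adjusted p = 0.0702), and between the labels 10 and 120 min with the offset (0.76, edgeR, adjusted p = 0.0829). PLK2 between the labels 10 and 120 min was at -1.52 with the offset (edgeR, adjusted p = 0.00782). The call of MDM4 was kept under 1 of 8 other settings, DESeq2, with adjusted p between 0.0247 and 0.209 over the 8. Between the labels 30 and 120 min of CX-5461 0 of the 9 passed in edgeR and in DESeq2, with 0.0130% of all genes in edgeR and 0.733% in DESeq2, while 5 of the 9 and 19.3% of all genes had an unadjusted p under 0.05.

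Within RBI2, GADD45B was higher at the label 10 min than at the label 30 min by 0.76 (SE 0.097, edgeR, adjusted p = 0.0143), the 1 of the 9 that passed, with 0.188% of all genes. Against the label 120 min 3 of the 9 passed, with 6.44% of all genes. GADD45B (0.63, SE 0.097) and RRM2B (0.64, SE 0.13) were higher at the label 10 min and PLK3 (-0.89, SE 0.19) lower, with edgeR's adjusted p of 0.0123, 0.0239 and 0.0286. PLK3 was at 4.74 and 5.75 CPM at the label 10 min and at 10.4 and 9.06 CPM at the label 120 min. With the offset for transcript length PLK3 was at -0.37 (edgeR, adjusted p = 0.608) and RRM2B at 0.52 (edgeR, adjusted p = 0.176), and with protein-coding transcripts only PLK3 was at -1.97 (edgeR, adjusted p = 0.00867). The calls of RRM2B and PLK3 were lost once any 1 of the 4 libraries compared was left out, and that of PLK3 also without either library of CX-5461 labelled 10 min or of RBI2 labelled 30 min. GADD45B was lost against the label 120 min without 3 of the 4 libraries compared, all but RBI2 labelled 10 min replicate 2. Against the label 30 min it was lost without any 1 of the 4, without either library of CX-5461 labelled 10 min, without RBI2 labelled 120 min replicate 1 and with the offset for transcript length (0.68, edgeR, adjusted p = 0.111). Between the labels 30 and 120 min 0 of the 9 passed in edgeR and in DESeq2, with 0.0130% of all genes in edgeR and 1.03% in DESeq2, while 1 of the 9 and 10.3% of all genes had an unadjusted p under 0.05.

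Other genes of the same pathways were set beside the 9 in 5 lists: 26 further p53 targets, 15 members of the p53 family and its regulators, 23 genes of nucleolar stress, 15 relatives and partners of the 9, and 12 cell cycle genes that p53 represses. Of these 91 genes 86 were tested. GDF15 (1 to 12 reads in a library), SPATA18, EDA2R, TP63 and CDKN2A had too few reads. Under CX-5461 labelled 10 min 7 of the 86 passed, 4 upward and 3 downward, and under RBI2 labelled 120 min 21 did, 8 upward and 13 downward, beside 4.77% and 18.0% of all genes. In the other 4 comparisons with the control 0 of the 86 passed in edgeR, while DESeq2 called 0 under CX-5461 labelled 30 min, 2 under CX-5461 labelled 120 min, 1 under RBI2 labelled 10 min and 17 under RBI2 labelled 30 min. DESeq2 called 0.162%, 0.577%, 1.14% and 6.37% of all genes in the same order. At an unadjusted p under 0.05 the counts in edgeR were 25, 11, 14 and 35 of the 86, beside 22.9%, 12.4%, 12.9% and 25.8% of all genes. Without control replicate 1 between 26 and 52 of the 86 passed in each of the 6 comparisons, where between 21.5% and 43.1% of all genes did.

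Of the p53 targets, 3 of 23 rose and none fell under CX-5461 labelled 10 min, where 1.80% of all genes rose and 2.98% fell. The median change of the 23 was 0.23, beside -0.04 over all genes. Among the 3 were SESN2, which restrains mTORC1 under stress (1.29, SE 0.20), and the antiproliferative gene BTG2 (1.04, SE 0.15), which were named after their values were seen. The third, which rose by 0.89, is shown in the plot of the pathway lists. Their levels were low: SESN2 stood at 12.9 and 12.2 CPM against 6.40 and 3.75 CPM in the controls. Under RBI2 labelled 120 min the translesion polymerase gene POLH rose by 0.35 (SE 0.077) and the death receptor gene FAS fell by 0.70 (SE 0.21), and the median of the list was 0.19 beside 0.01 over all genes. The call of FAS held in 2 of the 14 fits without a library, and its change lay between -1.08 and -0.35 over the 14. In the other 4 comparisons the median was between 0.14 and 0.17, beside -0.05 to 0.06 over all genes, and no gene passed in edgeR. These medians differed with the control library used. Of the 23 targets 15 were lower in control replicate 2 than in replicate 1, beside 13 of 23 nucleolar stress genes, and the share of all genes is not given. Without control replicate 2 the median of the 23 was 0.08 under CX-5461 labelled 10 min. It was between -0.0092 and 0.04 in the other 5 comparisons, beside 0 to 0.03 over all genes. Without control replicate 1 it was between 0.22 and 0.39 in the 6. Which control library is the more usual was not tested.

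Among p53's family and regulators none of 13 passed in edgeR under CX-5461 labelled 10 min, and 4 under RBI2 labelled 120 min, beside 4.77% and 18.0% of all genes. There the kinase gene HIPK2 rose by 0.95 (SE 0.20), from 157 and 221 CPM in the controls to 348 and 381 CPM. The p53 ligase genes COP1 and RCHY1 fell by 0.39 (SE 0.088) and 0.36 (SE 0.088), and MTBP, which encodes a partner of MDM2, by 0.46 (SE 0.13). With the offset for transcript length COP1 was at -0.04 (edgeR, adjusted p = 0.865) and MTBP at -0.19 (edgeR, adjusted p = 0.376). With protein-coding transcripts only COP1 was at -0.25 (edgeR, adjusted p = 0.332) and RCHY1 at -0.71 (edgeR, adjusted p = 0.108). The change of MTBP lay between -0.64 and -0.27 over the 14 fits without a library. The call of MTBP held in 4 of the 14 fits without a library, with edgeR's adjusted p up to 0.178.

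Of the 23 nucleolar stress genes 1 passed under CX-5461 labelled 10 min, beside 4.77% of all genes. It was GNL3, the gene of nucleostemin, with -0.36 (SE 0.073). Under RBI2 labelled 120 min 3 rose and 3 fell, beside 8.90% and 9.07% of all genes, and the median was -0.01. GRWD1 (0.66, SE 0.14), MYBBP1A (0.49, SE 0.073) and PML (0.36, SE 0.080) rose. NPM1, the gene of the abundant nucleolar protein nucleophosmin (-0.31, SE 0.075), GNL3 (-0.29, SE 0.073) and RPL5 (-0.24, SE 0.068) fell. Over the 14 fits without a library GRWD1 lay between 0.42 and 0.93, NPM1 between -0.42 and -0.20 and GNL3 between -0.39 and -0.19. NPM1 stood at 2134 and 2300 CPM against 2529 and 2954 CPM in the controls, and RPL5 at 1289 and 1268 CPM against 1447 and 1573 CPM. The call of RPL5 held in 4 of the 14 fits without a library, with edgeR's adjusted p up to 0.200. MYBBP1A and PML changed sign with the offset for transcript length, to -0.36 and -0.23, and GRWD1 was at 0.33 there (edgeR, adjusted p = 0.110).

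Among the relatives and partners, 1 of 15 rose and 1 fell under CX-5461 labelled 10 min, where 1.80% of all genes rose and 2.98% fell. CCNE1, the gene of a cyclin that p21 inhibits (0.62, SE 0.12), rose and was named after its value was seen. CDKN1B, the gene of the p21 relative p27 (-0.92, SE 0.088), fell. CDKN1B stood at 19.3 and 18.8 CPM against 33.7 and 38.7 CPM in the controls, so that it fell where CDKN1A rose. Under RBI2 labelled 120 min MAP2K7, a kinase gene of the JNK pathway (0.68, SE 0.15), and CCND1 (0.33, SE 0.086) rose. PLK4 (-0.78, SE 0.21), CDKN1B (-0.55, SE 0.088), RRM1 (-0.38, SE 0.080) and RRM2 (-0.22, SE 0.062), named after its value was seen, fell there. Over the 14 fits without a library MAP2K7 lay between 0.42 and 0.98 and PLK4 between -1.12 and -0.36. With the offset for transcript length CDKN1B was at -0.89 (edgeR, adjusted p = 0.0479). Of the 12 cell cycle genes that p53 represses, CCNA2 fell under CX-5461 labelled 10 min (-0.46, SE 0.10). Under RBI2 labelled 120 min MYBL2 rose by 0.27 (SE 0.065), and BUB1 (-0.57, SE 0.15) and CCNA2 (-0.45, SE 0.10) fell. Over the 14 fits without a library BUB1 lay between -0.82 and -0.28 and CCNA2 between -0.62 and -0.27. In the controls BUB1 stood at 265 and 385 CPM and PLK4 at 75.4 and 128 CPM, with the higher value in replicate 2, and without that library BUB1, MTBP, FAS, PLK4, NPM1, GNL3, RPL5, CCND1 and MYBL2 did not pass. The count of 21 became 13 without control replicate 2, 52 without replicate 1, and 0 and 2 without the first and the second library of RBI2 labelled 120 min, while 8.27%, 43.1%, 0.448% and 0.988% of all genes passed in the same order. The count of 7 under CX-5461 labelled 10 min became 49 without control replicate 1, and 2 and 3 without its own libraries, while 37.7%, 1.27% and 1.37% of all genes passed.

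**Figure D5:**
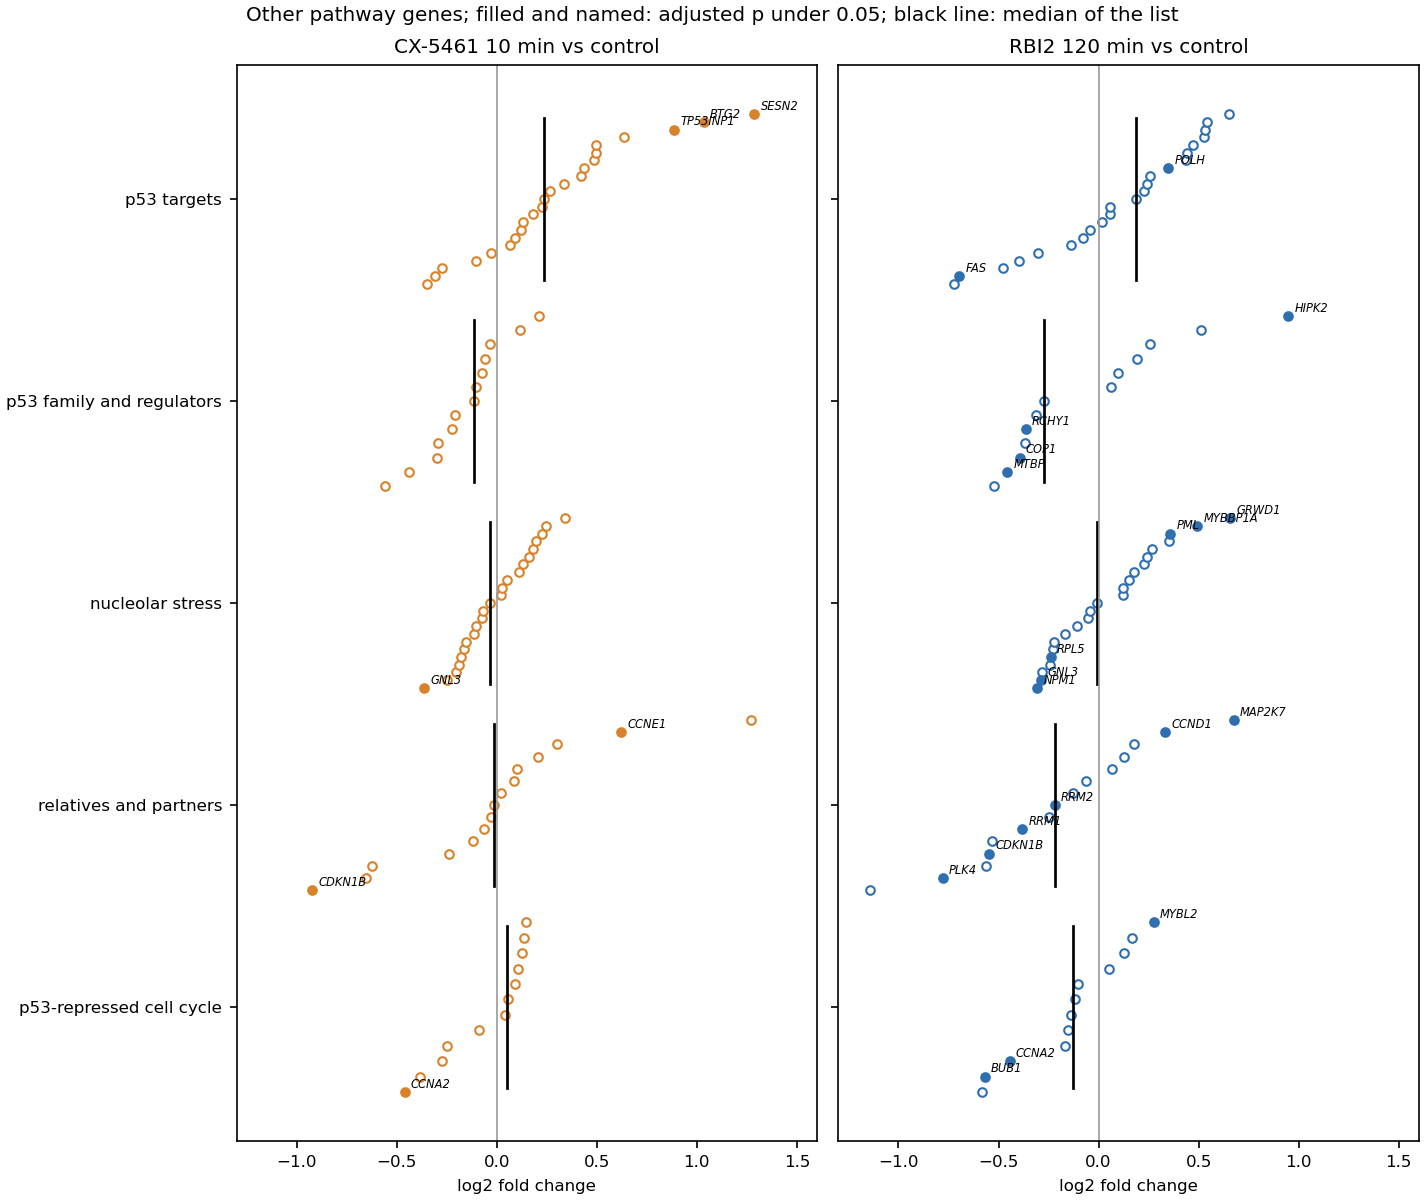
Log2 fold change (horizontal axis) of the tested genes of 5 pathway lists against the control, under CX-5461 labelled 10 min (left, orange) and RBI2 labelled 120 min (right, blue). Each point is a gene, filled and named where its adjusted p in edgeR is under 0.05 (7 genes on the left and 21 on the right), and the black line is the median of the list.

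The profiles of the genes over the 14 libraries are given last, as descriptions, since the libraries of a group are not independent of their treatment. Pearson's r of log2 CPM between CDKN1A and PLK2 was -0.87, between CDKN1A and GADD45A -0.76 and between GADD45A and PLK2 0.72, all over the same 14 libraries. MDM4 ran most closely with GADD45A (0.83) and with MDM2 (0.72), and GADD45A and GADD45B did not run together (-0.38). Of all tested genes, the nearest to GADD45A were SNHG17 (0.975), SNHG3 (0.964) and CCN1 (0.961), and to PLK2 GEM (0.979), PNRC2 (0.977) and DUSP6 (0.961). The nearest to CDKN1A were HNRNPM (0.960), IER5L (0.953) and TNFSF9 (0.949), and to GADD45B CSRNP1 (0.886), HES1 (0.881) and CHKA (0.880). The nearest to MDM4 were TOR1AIP2 (0.946), ZSCAN25 (0.942) and ADAMTS15 (0.940), and to RRM2B SPCS3 (0.984), SEH1L (0.976) and CSNK1A1 (0.975).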

How the data were processed

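Libraries of poly(A) RNA from MDA-MB-231 cells were prepared by the study with a stranded kit. According to the submitters' processing notes the tools were STAR 2.7.6a, SAMtools 1.11, bedtools 2.29.2, Salmon 1.3.0 and DESeq2 1.28.1, with the genome build hg38. Reads that aligned to ribosomal DNA were removed by the authors before Salmon was run. The deposited tables give for each transcript the estimated count of reads, the TPM computed by the authors with Salmon, and the transcript's length and effective length. The genes and the lists beside them were chosen with earlier results of these data known.

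Transcripts were assigned to genes by GENCODE 44, where 225662 of 228754 identifiers matched without regard to version, and the 3092 others held between 1.03% and 1.13% of the reads. Estimated counts were summed per gene and rounded. One model of 7 groups over the 14 libraries was fitted with edgeR 4.0.16 (TMM scaling, filterByExpr with a minimum count of 10, quasi-likelihood F test), so that all groups shared 1 estimate of the spread, in R 4.3.3 with limma 3.58.1. The threshold was an adjusted p of 0.05, after Benjamini-Hochberg correction across 15426 genes. CPM and correlations were computed in Python 3.11.15 with pandas 2.3.3 and numpy 2.4.6. The fit was tested on simulated counts in which every group had the same spread. The control replicates of the data differed more than the others, so that test does not cover the comparisons with the control.

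The comparisons were 6 with the control, 3 between the compounds at the same label and 6 between labels of 1 compound. Described by rule were all 9 genes, for each other list up to 3 genes that rose and 3 that fell most among those passing in the comparison with the most calls, and the 3 genes most like each of the 9 that passed against the control. Alternatives were DESeq2 1.42.0, its size factors, no filter, a replicate block, an offset for transcript length, only the libraries compared, a fold limit of 2, each library left out, and, chosen after seeing the data, protein-coding transcripts only. One gene of the lists is not reported here.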

Additional observations from a re-analysis of the deposited data

Results flagged for a closer look

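All of the following are differences between treated groups that were tested directly with edgeR, so that an effect under one compound or label was set against the effect under another. Between RBI2 and CX-5461 at the label 10 min the differences that passed were 0.87 for MDM4, 1.40 for GADD45A and 0.77 for PLK2, each in log2 and each higher under RBI2 in 2 of 2 libraries. At the label 120 min they were 0.36 for MDM4, 0.64 for GADD45A, -0.32 for GADD45B, -0.29 for PLK2 and -0.82 for RRM2B. MDM4 and GADD45A stood higher under RBI2 at both labels. PLK2 stood higher at the label 10 min, and its lower level at the label 120 min was -0.043 with protein-coding transcripts only (edgeR, adjusted p = 0.772).

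Within CX-5461, the label 10 min differed from the label 30 min by 0.69 for CDKN1A, -1.13 for GADD45A, 0.58 for GADD45B and -0.88 for PLK2. From the label 120 min it differed by -0.44 for MDM4, 0.73 for CDKN1A, -0.89 for GADD45A and -0.9997 for PLK2. Within RBI2, GADD45B differed by 0.76 between the labels 10 and 30 min and by 0.63 between the labels 10 and 120 min, where PLK3 differed by -0.89 and RRM2B by 0.64. In every one of these differences the libraries of the 2 groups did not overlap.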

How the results depend on the processing

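Over 2089 values of single genes and transcripts under an alternative, 1667 kept their direction and their side of the threshold, 342 no longer passed, 28 passed newly, 48 changed sign and 4 moved beyond the spread. None of the changes of sign touched one of the 9 genes where it passed. With 2 libraries a group the control libraries decide many calls. PLK3 had the fewest reads of the 9, 77 to 240 in a library, and the part of depth in its calls was not tested.

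With each library left out in turn, the number of the 9 passing against the control ranged from 0 to 5 for CX-5461 labelled 30 min and from 0 to 3 for the label 120 min. Under RBI2 it ranged from 1 to 5, 0 to 6 and 0 to 7 in the order of the labels. Between the compounds it lay between 3 and 6 at the label 10 min and 0 and 5 at 120 min. Between labels of CX-5461 it lay between 2 and 4 for 10 against 30 min, 2 and 4 for 10 against 120 min and 0 and 2 for 30 against 120 min, and of RBI2 between 0 and 2 for 10 against 30 min and 0 and 4 for 10 against 120 min. For the 86 other genes the range was 2 to 49, 0 to 49 and 0 to 26 under CX-5461 and 0 to 40, 0 to 47 and 0 to 52 under RBI2.

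With only the libraries compared, the count of the 9 against the control was 0 for CX-5461 labelled 10 and 120 min and RBI2 labelled 10 and 120 min, 6 between the compounds at the label 10 min and 2 for RBI2 10 against 30 min, and that of the 86 was 0 for CX-5461 labelled 10 min and RBI2 labelled 120 min. With DESeq2 it was 3 and 2 for RBI2 labelled 10 and 30 min and 6 between the compounds at 10 min, and for the 86 genes 2, 1 and 17 under CX-5461 labelled 120 min and RBI2 labelled 10 and 30 min. Without the filter it was 3 and 1 for RBI2 labelled 10 and 30 min, 5 and 3 between the compounds at 10 and 120 min and 2 for RBI2 10 against 30 min, and for the 86 genes 17, 16 and 1 under CX-5461 and 5 and 15 under RBI2 labelled 10 and 30 min. With the offset it was 0 for CX-5461 and RBI2 labelled 120 min, 1 and 2 between the compounds at 10 and 120 min, 2 for CX-5461 10 against 120 min and 0 and 1 for RBI2 10 against 30 and 120 min, and for the 86 genes 4 and 2 under CX-5461 labelled 10 min and RBI2 labelled 120 min. With protein-coding transcripts only it was 0 and 3 for CX-5461 and RBI2 labelled 120 min, 3 between the compounds at 120 min and 2 for RBI2 10 against 30 min, and for the 86 genes 4 and 13. With the fold limit it was 0 for CX-5461 and RBI2 labelled 120 min, 1 and 0 between the compounds at 10 and 120 min, 1 and 0 for CX-5461 10 against 30 and 120 min and 0 and 0 for RBI2, and for the 86 genes 2 and 0. Apart from DESeq2, the shares of all genes under these settings are not given, and those of the fits without a library are given above only in part. These counts, and the ranges over the fits without a library, are therefore not read as particular to the 9 or the 86 genes. The cause of these moves was not tested.

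The replicate numbers share no stated source, and the 21 correlations of replicate differences between groups lay between -0.18 and 0.18, with 3 over 0.1. With the replicate number as a block the count was 0 for CX-5461 labelled 120 min and 2 between the compounds at the label 120 min, where MDM4, GADD45B and PLK2 did not pass (edgeR, adjusted p = 0.0531, 0.0616 and 0.0568), and all other counts stayed within 1.5 times. The block also ended the calls of RRM2B under RBI2 labelled 120 min (edgeR, adjusted p = 0.0538) and of MDM4 between the labels 10 and 120 min of CX-5461 (edgeR, adjusted p = 0.0670). The shares of TPM of MDM2-230, MDM2-214, MDM2-226 and PLK3-207 became 14.03%, 4.54%, 3.20% and 6.88% as shares of the reads.

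Changes of sign were found with the offset for MDM4 (0.076), RRM2B (0.12) and ZMAT3 (0.054) under CX-5461 labelled 30 min, MDM2 (-0.087) and PLK2 (0.036) at 120 min, MDM2 (-0.18) under RBI2 labelled 10 min, MDM2 (-0.044) and ZMAT3 (0.075) at 30 min and MYBBP1A (-0.36) and PML (-0.23) at 120 min. With protein-coding transcripts PLK3 changed to -0.22 and -0.24 under CX-5461 labelled 30 and 120 min. RRM2B under CX-5461 labelled 30 min became 0.0083 without the filter and 0.0087 with only the libraries compared. MDM2 under RBI2 labelled 120 min, at -0.0041, became 0.0029 with DESeq2, 0.0024 with its size factors, 0.0086 without the filter, 0.0499 with protein-coding transcripts and 0.0018 with only the libraries compared. Leaving out a library, CX-5461 labelled 10 min gave -0.12 to 0.54 for PLK3 and -0.10 to 0.16 for ZMAT3. At 30 min it gave -0.094 to 0.045 for MDM4, -0.14 to 0.046 for GADD45A, -0.14 to 0.51 for PLK3 and -0.21 to 0.16 for RRM2B. At 120 min it gave -0.0082 to 0.14 for MDM2, -0.21 to 0.0067 for PLK2, -0.055 to 0.63 for PLK3 and -0.010 to 0.22 for ZMAT3. For RBI2 labelled 10 min it gave -0.081 to 0.16 for ZMAT3. At 30 min it gave -0.0075 to 0.16 for MDM2, -0.013 to 0.50 for CDKN1A, -0.19 to 0.48 for PLK3 and -0.21 to 0.041 for ZMAT3. At 120 min it gave -0.096 to 0.075 for MDM2, -0.080 to 0.43 for CDKN1A and -0.0081 to 0.65 for PLK3.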
